A study of Rattus norvegicus with 12 samples.

Results

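Aminotransferases move the amino group of an amino acid onto a keto acid, most often between glutamate and 2-oxoglutarate, with vitamin B6 as the bound cofactor. In liver they pass the nitrogen of incoming amino acids to glutamate and aspartate, from which the urea cycle takes it, and they leave carbon skeletons for making glucose during a fast. Glutamate dehydrogenase and glutaminase release that nitrogen as ammonia inside the mitochondria. The genes described here are 10 such enzymes: the cytosolic and mitochondrial alanine aminotransferases (Gpt and Gpt2), the cytosolic and mitochondrial aspartate aminotransferases (Got1 and Got2), Tat, Agxt, Agxt2, Bcat2, Glud1 and Gls2. They were chosen by name, and every probe set that the platform annotation gives to 1 of these symbols and to no other gene was taken. This gave 13 probe sets of the 20826 with 1 gene symbol, and 10 of 14217 genes.

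Each of the 12 arrays was hybridised with liver RNA of 1 male Wistar rat, an outbred laboratory strain, labelled as 5 weeks old. All animals had the basal purified AIN93G diet for 4 days. Then 6 of them received that diet with 20% maple syrup, and the other 6 received it with 20% of a sugar mix syrup whose sugars resembled those of maple syrup, for 11 days. Both groups were fasted for 16 hours before the liver was taken, so every value describes fasted liver, and there is no fed group. The labels give 7 rats fed maple syrup and 8 fed the sugar mix, and the animals beyond 6 per diet were not analysed here. All 7 measured hepatocyte markers of 8 listed, among them albumin, stood at or above the 98.8th percentile of probe set levels. The 5 skeletal muscle markers had a median percentile of 21.9 and a highest of 56.9, and the 4 kidney tubule markers 39.7 and 47.7. The 5 pancreatic acinar markers had a median of 14.2, but 1 of them, Cela1, stood at the 91.7th percentile. In whole liver, fewer cells of a type and less RNA per cell cannot be told apart.

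The deposited score resembles a log2 intensity in level but not in its differences between animals, which are far smaller, so no fold is given. A value is therefore stated as a standardised score, the distance from a probe set's mean over the 12 animals in units of its own standard deviation (SD). A diet difference is stated as Hedges' g, the maple syrup mean minus the sugar mix mean in units of the SD between animals, with a 95% interval and 6 animals per diet. Setting every maple syrup animal against every sugar mix animal gives 36 pairs, and beside g stands how many of them had the higher value with maple syrup.

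By level, 9 of the 10 genes were among the brighter features of the array. The brightest probe set of Glud1, glutamate dehydrogenase, had a mean score of 13.04, at the 99.3rd percentile of all probe sets. Got2 stood at 12.62 (98.9th percentile), Agxt, the alanine-glyoxylate aminotransferase that also uses serine, at 11.84 (97.9th), and Tat, tyrosine aminotransferase, at 11.35 (96.9th). Agxt2, a mitochondrial aminotransferase that uses alanine and glyoxylate, stood at 10.88 (95.5th), Gls2, the liver type of glutaminase, at 10.71 (94.9th), and Got1 at 10.65 (94.6th). Gpt had a score of 9.87 (90.3rd percentile) and Gpt2 one of 9.79 (89.7th), while a second Gpt2 probe set stood at 8.66 (77.6th). Bcat2, the mitochondrial branched-chain aminotransferase, which is known to be scarce in liver, was the exception at 6.97, the 34.5th percentile. Probe sets differ in affinity, and the 2 probe sets of Got2 stood at the 98.9th and 60.8th percentiles. This order is therefore not an order of transcript amounts. What sets the 2 Got2 probe sets apart was not tested.

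The spread between animals differed widely among the members. The SD of the score over the 12 animals was 0.00343 for Gpt2, 0.00314 for Gpt, 0.00253 for Got1, 0.00224 for Tat and 0.00195 for Agxt2, each at or above the 98.9th percentile of SDs of all probe sets. It was 2.28e-06 for Got2, at the 14.1th percentile, 2.14e-05 for Agxt and 1.99e-05 for the brightest probe set of Glud1. The deposited scale may be compressed by unequal amounts, so a narrow score and a steady transcript cannot be told apart, and all values below are in units of each probe set's own SD.

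Sequences upstream of Got1, Got2 and Tat are shown so that the cytosolic and mitochondrial aspartate aminotransferases and Tat, whose covariation is described further on, can be set beside each other. Windows of 250 bases before an annotated start were taken from RefSeq on GRCr8, an assembly of another rat strain, for 9 of the 10 members, Gpt2, Got1, Got2, Tat, Agxt, Agxt2, Glud1, Gls2 and Bcat2. Capitals mark the letters CCAAT or, for the other strand, ATTGG, the core of the CCAAT box. The windows are at chr1:252329872-252330121 on the minus strand for Got1, at chr19:9180178-9180427 on the plus strand for Got2 and at chr19:54856354-54856603 on the plus strand for Tat. That of Got1 lies within the annotated span of the gene, and those of Got2 and Tat end at the base before the gene.
Got1: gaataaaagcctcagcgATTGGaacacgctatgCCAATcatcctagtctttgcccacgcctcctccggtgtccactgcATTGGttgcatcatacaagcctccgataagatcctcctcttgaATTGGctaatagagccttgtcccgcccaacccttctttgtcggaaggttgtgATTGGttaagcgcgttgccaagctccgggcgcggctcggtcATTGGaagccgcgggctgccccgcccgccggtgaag
Got2: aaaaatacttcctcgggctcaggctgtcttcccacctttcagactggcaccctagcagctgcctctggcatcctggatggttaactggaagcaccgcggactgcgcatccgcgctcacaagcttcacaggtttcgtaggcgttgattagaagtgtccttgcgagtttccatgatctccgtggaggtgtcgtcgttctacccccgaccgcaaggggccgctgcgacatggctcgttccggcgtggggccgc
Tat: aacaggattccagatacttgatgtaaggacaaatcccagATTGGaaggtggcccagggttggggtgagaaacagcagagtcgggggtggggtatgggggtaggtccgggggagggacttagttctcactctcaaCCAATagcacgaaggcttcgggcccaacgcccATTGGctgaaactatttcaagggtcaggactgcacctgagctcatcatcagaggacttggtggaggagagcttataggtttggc

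The Got1 window held 6 matches to CCAAT on either strand, the Tat window 3 and the Got2 window 0. Of 33469 rat windows of this length 34.0% held at least 1, 2.52% at least 3 and 0.0329% at least 6. Among the other members, 1 match stood in a Gls2 window and 1 in an Agxt window, and none in those of Gpt2, Agxt2, Glud1 and Bcat2. The letters TGACG, part of the cAMP response element, stood on either strand in the window of Gls2 alone, with 2 matches, where 18.2% of all windows held them. AGAACA, part of the glucocorticoid response element, stood only in that of Agxt, with 1, where 17.5% of all windows held it. The limits of 3 and 6 equal the Tat and Got1 counts, and the shares make no allowance for that. A match describes these letters and is no sign of a site in use. A relation between matches and covariation was not tested.

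No member differed between the diets beyond the spread between animals. With limma and Benjamini-Hochberg adjustment 0 of the 13 probe sets passed at an adjusted p of 0.05, where 0 of all 20826 did (0%). At an unadjusted p of 0.05 limma counted 0 of the 13 and 4.19% of all probe sets. Without sharing variance between probe sets, 0 passed after adjustment and 853 before it. The smallest p of a member was 0.0913 (Got1, adjusted p = 1.00). The 2 diets overlapped in all 13, and 0.0912% of all probe sets had no overlap. Of the 13 values of g, 4 were above 0 and 9 below, with a median of -0.18 against -0.02 over all probe sets, and all 13 intervals included 0. After centring of each array on its median 6 were above 0 and 7 below. That centring moved the median moderated t of all probe sets from -0.03 to 0.68, and the split of unadjusted p of at most 0.05 from 434 higher and 439 lower to 189 and 33, while quantile normalization gave 289 and 631. The array medians lay within 0.000169 of each other, where the median SD of a probe set was 7.13e-06. With each probe set scaled to its SD and the array median of scaled values removed, 4 of the 13 were above 0 and 9 below. The median t was then -0.01, and the split was 277 higher and 234 lower. The medians removed lay between -0.048 and 0.043 SD. Their removal therefore shifts little, and here and below it is no separate check of the signs of the main fit.

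**Figure D1:**
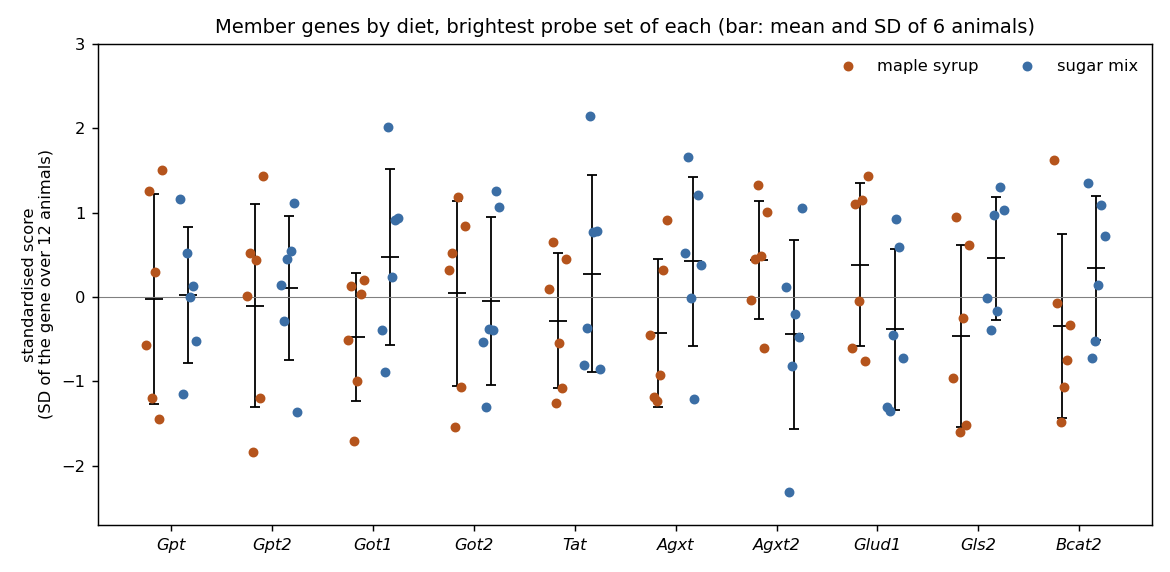
Standardised score (y axis, in SD of the gene over 12 animals) of the brightest probe set of each of the 10 genes (x axis), with 1 point per animal, maple syrup left and sugar mix right, and bars for the mean and SD of 6 animals. The diets overlap in each gene, from Gpt (g = -0.04) to Got1 (g = -0.96).

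The alanine aminotransferases, which join alanine to pyruvate and so feed glucose synthesis, stood alike under both diets. Gpt, the cytosolic form, had a lowest, median and highest standardised score of -1.45, -0.13 and 1.5 with maple syrup and of -1.15, 0.06 and 1.16 with the sugar mix. The maple syrup animals thus held both the highest and the lowest Gpt of the 12, and the sugar mix animals lay between them. The g was -0.04 (95% interval -1.09 to 1.00), and maple syrup was higher in 17 of 36 pairs. Gpt2, the mitochondrial form, ran from -1.84 over 0.23 to 1.43 with maple syrup and from -1.36 over 0.30 to 1.12 with the sugar mix. Its g was -0.18 (95% interval -1.23 to 0.87), with 16 of 36 pairs, and the second Gpt2 probe set gave -0.13. The intervals leave differences of about 1 SD in either direction possible, so equal levels were not shown.

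The aspartate aminotransferases interconvert aspartate and oxaloacetate on both sides of the mitochondrial membrane and are part of the malate-aspartate shuttle. Got1, the cytosolic form, ran from -1.70 over -0.23 to 0.20 with maple syrup and from -0.89 over 0.58 to 2.02 with the sugar mix. No maple syrup animal exceeded 0.20, while 4 of the 6 sugar mix animals did. Its g, -0.96 (95% interval -2.06 to 0.19), was the largest in size of the 13, with maple syrup higher in 7 of 36 pairs. Got2, the mitochondrial form, ran from -1.54 over 0.42 to 1.19 with maple syrup and from -1.30 over -0.38 to 1.25 with the sugar mix. Both diets spanned nearly the same range of Got2, with g = 0.08 (95% interval -0.97 to 1.12) and 18 of 36 pairs. The dimmer Got2 probe set gave -0.44 (95% interval -1.49 to 0.63) and, after centring of each array on its median, a moderated t of 0.65 in place of -0.81. With probe sets scaled first and the array median of scaled values removed, that t was -0.77.

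Whether the diet difference was unequal between the 2 forms was tested on the cytosolic minus the mitochondrial value in each animal, each gene scaled to its SD within diets. For Got1 minus Got2 the mean was -0.56 ± 1.06 (SD, n = 6) with maple syrup and 0.56 ± 1.02 (SD, n = 6) with the sugar mix. This difference of -1.13 did not pass an exact two-sided permutation test (p = 0.0844, adjusted over the 2 enzymes 0.169). Maple syrup was higher in 5 of 36 pairs. Without maple syrup replicate 5 the difference was -1.42 and passed (exact permutation, adjusted p = 0.00866). With any other single array left out it did not pass (exact permutation, adjusted p from 0.156 to 0.403). With the dimmer Got2 probe set it was -0.56 and did not pass (exact permutation, adjusted p = 0.532). For Gpt minus Gpt2 the mean was 0.08 ± 0.50 (SD, n = 6) with maple syrup and -0.08 ± 0.83 (SD, n = 6) with the sugar mix, with an exact permutation p of 0.699.

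The other aminotransferases did not move one way. Tat, which begins the breakdown of tyrosine and is known to respond to glucocorticoids and fasting, ran from -1.26 over -0.22 to 0.66 with maple syrup and from -0.86 over 0.20 to 2.14 with the sugar mix. Sugar mix replicate 3 held that highest value, and it also held the highest Got1. The g of Tat was -0.51 (95% interval -1.57 to 0.57), with 11 of 36 pairs. Agxt, which clears glyoxylate, ran from -1.24 over -0.69 to 0.91 with maple syrup and from -1.20 over 0.45 to 1.66 with the sugar mix. Its g was -0.84 (95% interval -1.93 to 0.28), with 9 of 36 pairs. Its moderated t of -1.63 became 0.05 after centring of each array on its median. With probe sets scaled first and the array median of scaled values removed, that t was -1.38.

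Agxt2 had the opposite sign. It ran from -0.60 over 0.47 to 1.33 with maple syrup and from -2.31 over -0.34 to 1.06 with the sugar mix, where replicate 2 held the lowest value. The g of Agxt2 was 0.87 (95% interval -0.26 to 1.96), with maple syrup higher in 27 of 36 pairs. Bcat2, which takes the amino group from leucine, isoleucine and valine, ran from -1.47 over -0.54 to 1.63 with maple syrup and from -0.72 over 0.43 to 1.35 with the sugar mix. Its g was -0.65 (95% interval -1.71 to 0.45), with 10 of 36 pairs, although maple syrup replicate 1 held the highest Bcat2 of the 12 animals.

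The 2 enzymes that release ammonia in mitochondria had g of opposite sign, and neither passed. Glud1, which splits glutamate into 2-oxoglutarate and ammonia, ran from -0.75 over 0.53 to 1.44 with maple syrup and from -1.35 over -0.59 to 0.92 with the sugar mix. Its g was 0.74 (95% interval -0.37 to 1.81), with 27 of 36 pairs, and its other probe set gave 0.73 with 26 pairs. Gls2, which frees ammonia from glutamine in periportal hepatocytes, ran from -1.59 over -0.60 to 0.95 with maple syrup and from -0.39 over 0.48 to 1.31 with the sugar mix. The 3 lowest Gls2 values were maple syrup animals, with g = -0.92 (95% interval -2.02 to 0.22) and 7 of 36 pairs.

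**Figure D2:**
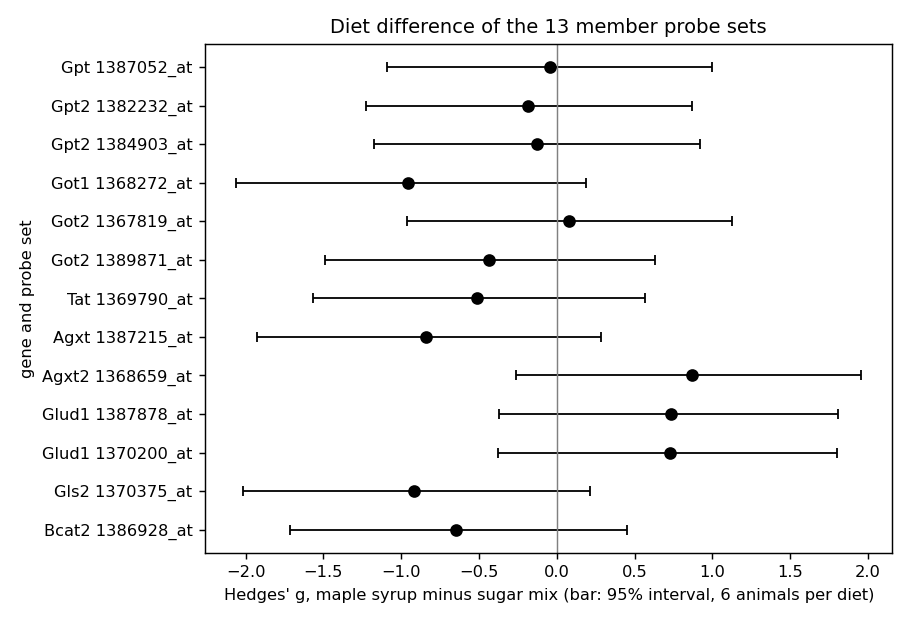
Hedges' g of maple syrup minus sugar mix (x axis, in SD between animals) for each of the 13 probe sets (y axis), where bars are 95% intervals for 6 animals per diet. All 13 intervals cross 0, and Agxt2, both Glud1 probe sets and the brighter Got2 probe set lie above it.

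Seen by animal, several animals were low in most of the members, and 1 of them was the lowest of the 12 in most. Maple syrup replicate 3 had the lowest value of all 12 animals in 7 of the 10 genes, Gpt2, Got1, Got2, Tat, Agxt, Gls2 and Bcat2, and the highest in Agxt2. It was the lowest of the 12 in 7.06% of all 14217 genes, and the other animals were so in 6.18% to 13.1%. Maple syrup replicates 3 and 5 were each among the lowest 3 in 8 genes. Over all genes they were so in 23.8% and 30.8%, the latter the highest such share of the 12. At the other end, maple syrup replicate 6 and sugar mix replicate 5 each stood above the mean in 9 genes. Sugar mix replicate 2 was below the mean in 9, as was maple syrup replicate 3, and had the highest Agxt of the 12. The share of all genes above or below their mean was not counted for these animals. Their median standardised scores over all probe sets, in the order named, were 0.042, -0.048, 0.040 and -0.009. The 10 genes vary partly together over the animals, so such counts do not stand for 10 separate observations.

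**Figure D3:**
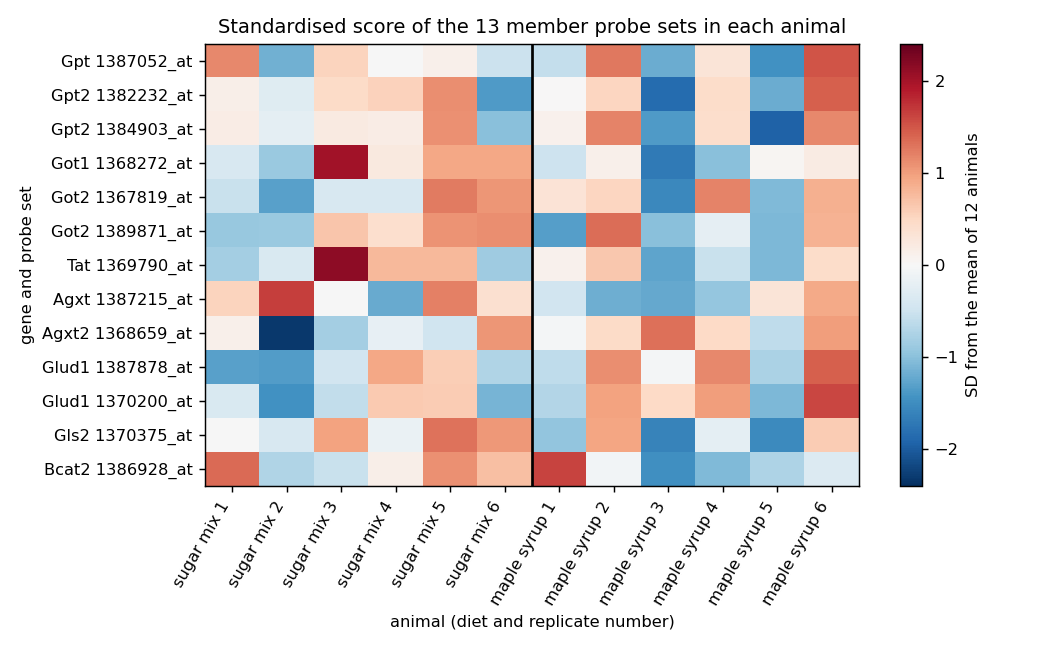
Standardised score (colour, in SD from the mean of 12 animals) of the 13 probe sets (rows) in each animal (columns), with the sugar mix left of the black line and maple syrup right of it. The column of maple syrup replicate 3 is the lowest of the 12 in 7 of the 10 genes and below the mean in 9, and the probe sets of Gpt2 and of Glud1 repeat each other's pattern.

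The 2 probe sets of Gpt2 moved alike, as did those of Glud1. Those of Got2 did so less, with g of 0.08 and -0.44. Over the 12 animals the 2 probe sets of Gpt2 had a Pearson r of 0.93, those of Glud1 0.93 and those of Got2 0.65. They share the animal and the array, so this is a description with no test.

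Covariation over the 12 livers was measured for the 45 pairs of the members' brightest probe sets. In 37 pairs r was above 0 and in 8 below, with a median of 0.31. An r of at least 0.7, a limit chosen after the values were seen, was reached by 4 of the 45, where 0.951% of all pairs of the 14217 genes reached it. None was at or below -0.7, where 0.832% of all gene pairs were. In permutation tests 8 pairs had an unadjusted p of at most 0.05 and 0 passed after Benjamini-Hochberg adjustment over the 45. With Spearman's rho 2 passed, Gpt2 with Tat and Got1 with Gls2. Without maple syrup replicate 3 the count of pairs at 0.7 was 2, where 1.29% of all gene pairs reached it, and without sugar mix replicate 6 it was 7, where 1.25% did. Also without sugar mix replicate 6, 5 pairs passed after adjustment.

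The 2 alanine aminotransferases had the highest r of the 45. Gpt and Gpt2 had r = 0.77 (permutation p = 0.0042, adjusted p = 0.114) and rho = 0.76 (permutation p = 0.00695, adjusted p = 0.104). Without the 2 animals farthest from the median Gpt, r was 0.64. It was 0.91 within maple syrup (n = 6, exact permutation p = 0.0139) and 0.45 within the sugar mix (n = 6, exact permutation p = 0.36), and the difference between these was not tested. The second Gpt2 probe set gave r = 0.82 with Gpt. In the list of all 14216 other genes ordered by r with Gpt, Gpt2 stood at place 58. By contrast, the 2 aspartate aminotransferases had r = 0.37 (permutation p = 0.231, adjusted p = 0.516) and rho = 0.44 (permutation p = 0.154), and 0.68 with the dimmer Got2 probe set.

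The other pairs with r of at least 0.7 were Got1 with Gls2, Got1 with Tat and Gpt2 with Tat. Got1 and Gls2 had r = 0.73 (permutation p = 0.00611, adjusted p = 0.114) and rho = 0.82 (permutation p = 0.00171, adjusted p = 0.0385), and r was 0.62 without the 2 animals farthest from the median Got1. Within diets r was 0.57 for maple syrup and 0.83 for the sugar mix. Gpt2 and Tat had r = 0.71 (permutation p = 0.0101, adjusted p = 0.114) and rho = 0.83 (permutation p = 0.0016, adjusted p = 0.0385), with r of 0.86 within maple syrup and 0.65 within the sugar mix. Without the 2 animals farthest from the median Gpt2, r was 0.58. Got1 and Tat had r = 0.71 (permutation p = 0.00899, adjusted p = 0.114) and rho = 0.60 (permutation p = 0.0433, adjusted p = 0.246). Within diets the r of Got1 and Tat was 0.65 for maple syrup and 0.70 for the sugar mix. Without the 2 animals farthest from the median Got1 it was 0.31. Leaving out the extremes of Got1 narrows its range, so this lower r cannot show that the relation rests on those 2 animals. Without sugar mix replicate 3 r was 0.50.

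**Figure D4:**
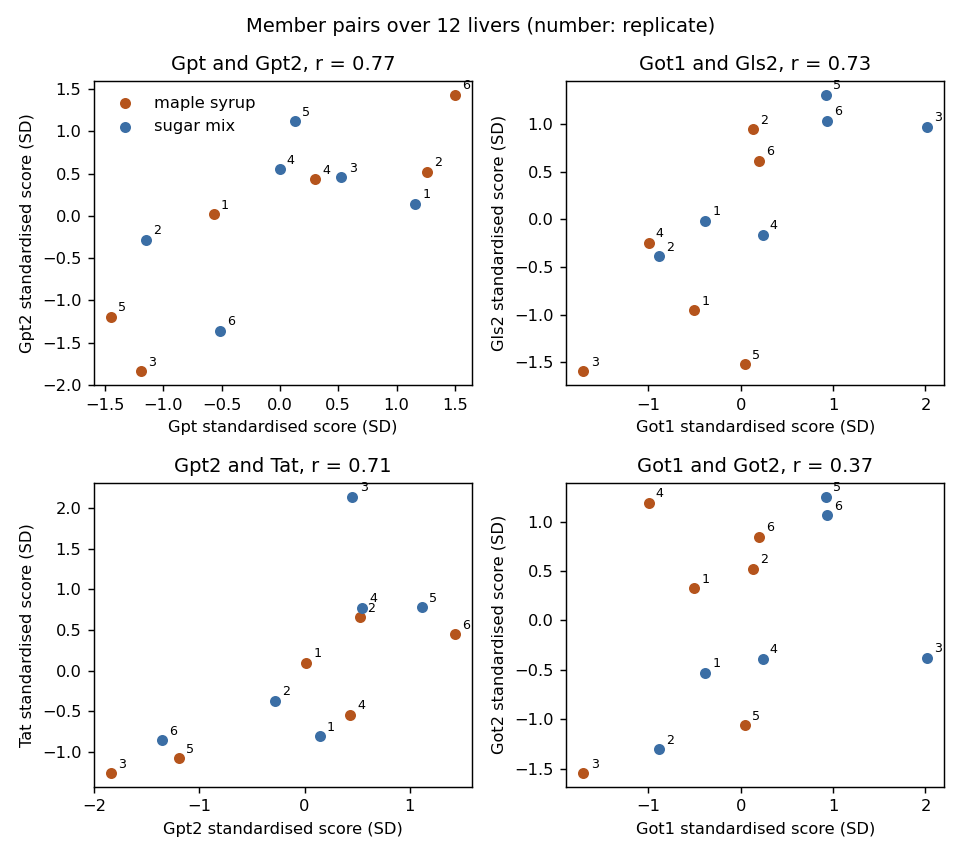
Standardised scores (both axes, in SD) of 4 pairs of genes, with 1 point per animal, coloured by diet and numbered by replicate. Gpt with Gpt2 (r = 0.77), Got1 with Gls2 (0.73) and Gpt2 with Tat (0.71) slope upward with maple syrup replicate 3 at the low end, while Got1 with Got2 (0.37) scatters.

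Gls2 had an unadjusted p of at most 0.05 with 5 members, none of them past adjustment. Besides Got1 these were Got2 at r = 0.68 (permutation p = 0.0191, adjusted p = 0.163), Gpt at 0.66 (permutation p = 0.0217, adjusted p = 0.163), Tat at 0.62 (permutation p = 0.0314, adjusted p = 0.202) and Gpt2 at 0.59 (permutation p = 0.0437, adjusted p = 0.246). The corresponding rho were 0.70, 0.64, 0.60 and 0.55, with permutation p of 0.0147, 0.0302, 0.0438 and 0.0678, and r without the 2 animals farthest from the median of the partner was 0.48, 0.56, 0.47 and 0.81. The dimmer Got2 probe set had r = 0.89 with Gls2. The 2 lowest r of the 45 were those of Agxt with Agxt2, -0.51 (permutation p = 0.0881, adjusted p = 0.29), and with Glud1, -0.41 (permutation p = 0.181, adjusted p = 0.455). Agxt2 also had r below 0 with Tat (-0.27), Got1 (-0.15) and Gpt2 (-0.15), so Agxt was not alone in this. The rho of Agxt with Agxt2 and with Glud1 were -0.38 and -0.39, with permutation p of 0.217 and 0.21. Without the 2 animals farthest from the median Agxt these r were -0.01 and -0.30.

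**Figure D5:**
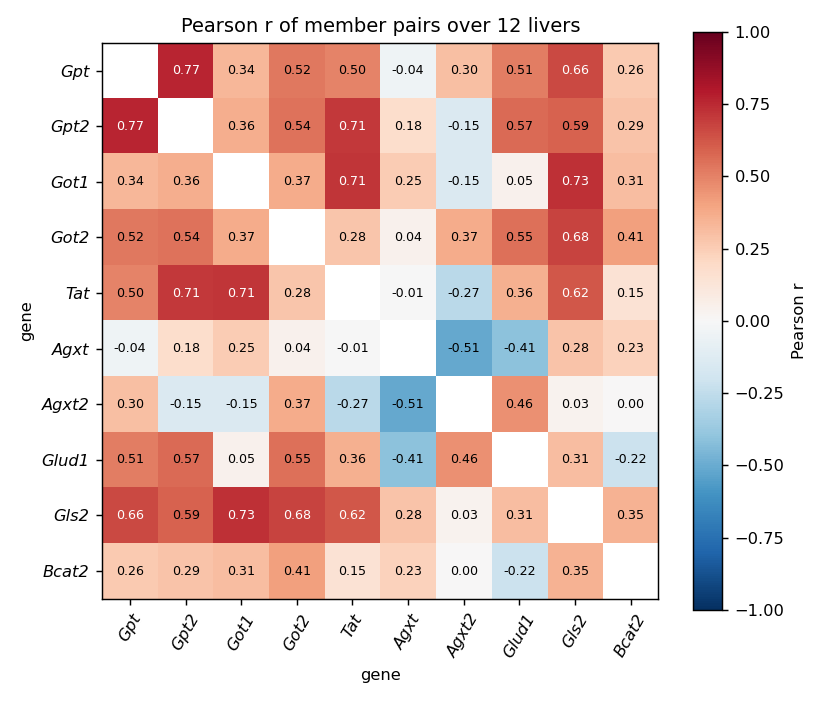
Pearson r over the 12 livers (colour and number) for the 45 pairs of the 10 genes (both axes). The 4 values of at least 0.7 are Gpt with Gpt2 (0.77), Got1 with Gls2, Got1 with Tat and Gpt2 with Tat. Other pairs of these genes reach down to 0.34 (Gpt with Got1), and Got2 with Gls2 has 0.68. The lowest of the 45 is -0.51 for Agxt and Agxt2.

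Some control signals of the array moved with single members. The 5′ hexokinase control had r = 0.76 with Gpt (permutation p = 0.00417; rho = 0.80, permutation p = 0.00276) and 0.74 with Got2 (permutation p = 0.00556; rho = 0.74, permutation p = 0.00786). Without the 2 animals farthest from the median of the member r was 0.79 and 0.67. The 5′ GAPDH control had r = 0.77 with Agxt (permutation p = 0.00454; rho = 0.84, permutation p = 0.00124) and 0.65 without the 2 farthest animals. Agxt also had r = 0.76 with the 5′ beta-actin control (permutation p = 0.00574; rho = 0.82, permutation p = 0.00188), 0.73 with the 3′ beta-actin control (permutation p = 0.00712; rho = 0.71, permutation p = 0.0115) and 0.61 with the 3′ GAPDH control (permutation p = 0.0379; rho = 0.76, permutation p = 0.00596). Without the 2 farthest animals these were 0.62, 0.50 and 0.41, so Agxt had a positive r with both ends of these controls. Their mean standardised scores with maple syrup were -0.39 (5′) and -0.50 (3′) for GAPDH and -0.28 (5′) and -0.47 (3′) for beta-actin. That of Agxt was -0.43. The hexokinase controls went the other way, with 0.23 (5′) and 0.38 (3′). Each sugar mix mean had the same size and the opposite sign. Of 150 relations between the 10 genes and 15 marker lists and array controls, 14 had an unadjusted p of at most 0.05 and 0 passed after adjustment (smallest adjusted p 0.214). Of the marker lists, hepatocytes had 7 of 8 members measured and a mean standardised score of -0.08 to 0.59 in the maple syrup animals and -0.45 to 0.32 in the sugar mix animals. Their r with Glud1 was 0.63 (permutation p = 0.0303; rho = 0.64, permutation p = 0.0299), and 0.39 without the 2 farthest animals. The sinusoidal endothelial list, with 5 of 6 measured, had a mean standardised score of -0.31 to 0.76 in the maple syrup animals and -0.57 to 0.47 in the sugar mix animals. Its r was -0.60 with Gls2 (permutation p = 0.0407; rho = -0.48, permutation p = 0.122) and -0.58 with Tat (permutation p = 0.0472; rho = -0.67, permutation p = 0.0202), and without the 2 farthest animals -0.26 and -0.44. Agxt had r = 0.58 with the macrophage list (permutation p = 0.0485; rho = 0.52, permutation p = 0.0894), and 0.37 without the 2 farthest animals. That list, with 6 of 8 measured, had a mean standardised score of -1.5 to 0.99 in the maple syrup animals and -0.50 to 1.11 in the sugar mix animals. Gls2 had r = 0.61 with the skeletal muscle list (permutation p = 0.0354; rho = 0.59, permutation p = 0.0457), and 0.44 without the 2 farthest animals. That list, with all 5 measured, had a mean standardised score of -0.78 to 0.64 in the maple syrup animals and -0.65 to 0.55 in the sugar mix animals. The remaining relations of the 14 were of Gpt2 with the 5′ hexokinase control (r = 0.65), Bcat2 with the 3′ GAPDH control (0.62) and Agxt2 with the 3′ beta-actin control (-0.60), with permutation p of 0.0238, 0.033 and 0.0395. Their rho were 0.65, 0.57 and -0.43, with permutation p of 0.0258, 0.0568 and 0.171, and r without the 2 farthest animals was 0.53, 0.36 and -0.02. The part of these signals in the members' values was not tested.

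The genes whose pattern over the 12 animals was most like that of a member were found by Pearson r among 14216 other genes, as a description. For Got1 these were Slc25a15 (r = 0.93), the ornithine carrier of the urea cycle, Sds (0.92), serine dehydratase, and Borcs7 (0.88). For Gls2 they were Ass1 (0.91), argininosuccinate synthase, Slc25a38 (0.90), a mitochondrial glycine carrier, and Adhfe1 (0.90). For Gpt2 they were Edem1 (0.95), Cyp2c22 (0.93) and Arg1 (0.92), the liver arginase. For Tat they were Tbp (0.93), Slc38a2 (0.87), a carrier of neutral amino acids, and Mat1a (0.87), which makes S-adenosylmethionine. For Got2 they were Pik3c2g (0.93), Ggcx (0.93) and Hrg (0.92), for Glud1 Zbtb20 (0.91), LOC100910949 (0.90) and Ivd (0.89), and for Gpt Bola1 (0.93), Fgf3 (0.92) and Bpifb4 (0.89). Agxt was most like Dock6 (0.88), Mvp (0.88) and Hps3 (0.86), Agxt2 like Bpifb6 (0.86), Ctsf (0.86) and Ankh (0.85), and Bcat2 like Shb (0.93), Cnpy4 (0.89) and Tekt5 (0.86).

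Of 38 other genes of the pathway, 33 were measured and 0 passed limma after adjustment. Of the 33, 11 had a g above 0 and 22 below, with a median of -0.19. After centring of each array on its median, 27 of the 33 were above 0 and 6 below. With probe sets scaled first and the array median of scaled values removed, 12 were above 0 and 21 below. Among all 14217 genes 6696 were above 0 and 7521 below, with a median of -0.04, and among the 10 members 3 were above and 7 below, with a median of -0.35. The largest g in size of the 33 was that of Kyat3, followed by Slc1a4 and Kyat1. Kyat3, which transfers amino groups from kynurenine and glutamine, ran from -0.10 over 0.62 to 2.05 with maple syrup and from -1.47 over -0.75 to -0.19 with the sugar mix. The diets did not overlap in Kyat3, with all 36 pairs higher for maple syrup and g = 2.18 (95% interval 0.75 to 3.56). It did not pass (limma unadjusted p = 0.0015, adjusted p = 1.00), and 19 of the 20826 probe sets had diets that did not overlap. After quantile normalization its moderated t of 4.23 was 0.96. Kyat1, the related enzyme, ran from -0.98 over -0.85 to 0.21 with maple syrup and from -0.62 over 0.82 to 2.03 with the sugar mix, with g = -1.36 (95% interval -2.54 to -0.14, limma adjusted p = 1.00) and 4 of 36 pairs. Its moderated t of -2.65 was -0.80 after quantile normalization. Kyat3 and Kyat1 are named for their small p, and their intervals make no allowance for that choice.

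The 7 measured genes of the mitochondrial carriers and shuttle dehydrogenases all had a g below 0, with a median of -0.61 and 0 calls. With probe sets scaled first and the array median of scaled values removed, 0 were above 0 and 7 below. After centring of each array on its median, without that scaling, 5 were above 0 and 2 below. Mdh1, the cytosolic malate dehydrogenase, had g = -0.89 (95% interval -1.98 to 0.25), and -0.34 from its other probe set. Its moderated t was 0.40 after that centring. Slc25a22, a glutamate carrier, had g = -0.87 (95% interval -1.97 to 0.26). Of the 7 glutamate and glutamine enzymes 3 were above 0 and 4 below. Glul, glutamine synthetase of pericentral hepatocytes, had g = 0.83 (95% interval -0.30 to 1.91), and 0.35 and 0.89 from its other probe sets. Cps1, which fixes ammonia for the urea cycle, had g = -0.90 (95% interval -2.0 to 0.23), with a moderated t of 0.27 after the same centring. Its other probe set gave g = -0.65. Of the 8 carriers of the plasma membrane 4 were above 0 and 4 below. Slc1a4, a carrier of neutral amino acids, had g = 1.44 (95% interval 0.20 to 2.63, limma adjusted p = 1.00), picked for its small p, with a moderated t of 2.79 and, after quantile normalization, of 1.11. Slc38a4 had g = -0.47. Of the 4 genes of branched-chain keto acid breakdown, 1 was above 0 and 3 below, with g = -0.29 for Bckdha and 0.25 for Dbt. Their other probe sets gave -0.008 and 0.40. The 3 enzymes of vitamin B6 activation listed were not analysed here.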

How the data were processed

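The deposited table holds the authors' processed score for 31099 probe sets on 12 Affymetrix arrays, with 0 missing values. RNA was labelled with biotin from 2 ug per array, per the labels' protocols, and how probes were summarised or normalised is not given in the sources used here. Scores ran from 5.57 to 15.2, with a median SD of 7.13e-06 over the arrays. Gene names came from the platform annotation, in which 20826 had 1 symbol, 436 several and 9780 none, and 57 controls were left out. The diet of each animal was taken from the labels. Tests used limma 3.58.1 under R 4.3.3, with lmFit and a trended eBayes on all 20826 probe sets, two-sided, and adjustment after Benjamini and Hochberg. Correlations were tested with 100000 permutations in numpy 2.4.6, and intervals came from scipy 1.17.1. Each gene's brightest probe set was used for covariation. All members were named, of each pathway list the 2 genes with the smallest p, and 3 genes most like each member. Members and lists were chosen with earlier results of these data known. Scripts were tested on simulated data. The number of arrays limits the precision. Figures were drawn with matplotlib 3.10.9.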

Additional observations from a re-analysis of the deposited data

How the results depend on the processing

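No call of a probe set between the diets arose in any alternative tried (0 of all and 0 of the members in each): other normalization, low scores raised to the 20th percentile, the lowest 30% left out, 1 probe set per gene, other variance models, array weights, and each array left out. Same-numbered arrays of the diets had correlations of -0.039 to 0.129, which gave no sign of a pairing over whole arrays. What the numbers stand for is not stated in the labels. With the replicate number as a block 0 probe sets passed, Got1 had a moderated t of -1.57, and Got1 minus Got2 stayed at -1.13 (exact permutation, adjusted p = 0.375). The block changed no call, but it moved the t of Glul from 1.60 to 3.46 and that of Kyat3 from 4.23 to 3.28. After quantile normalization 5 member probe sets became constant, so those of Got2 (the brighter), Agxt, Glud1 and Gls2 and the difference Got1 minus Got2 gave no value there, nor did Glul, Cps1, Slc25a22, Mdh1 and Slc38a4. Bcat2 had none without the lowest 30% of probe sets. Some signs changed. The moderated t of Gpt was 0.16 under quantile normalization and 0.003 with array weights, and ran from -0.64 to 0.41 with single arrays left out. Such ranges were -0.93 to 0.27 for Gpt2, -0.68 to 0.45 for its second probe set, -0.26 to 0.70 for Got2 and -1.13 to 0.013 for Bckdha. Median centring, which moved the median t of all probe sets from -0.03 to 0.68, gave 0.65 for the second Got2 probe set, 0.054 for Agxt, 0.27 for Cps1, 0.40 for Mdh1, 0.64 for Slc38a4 and 0.63 for Bckdha, and quantile normalization gave 0.64 for Bckdha and took the t of Kyat3 from 4.23 to 0.96, of Kyat1 from -2.65 to -0.80 and of Slc1a4 from 2.79 to 1.11. With scaled probe sets and the array median of scaled values removed, the signs that median centring changed were those of the main fit. Those medians lay between -0.048 and 0.043 SD, so this setting stays close to the main fit and cannot decide between the signs. The t was -0.77 for the second Got2 probe set, -1.38 for Agxt, -1.47 for Cps1, -1.445 for Mdh1, -0.83 for Slc38a4 and -0.515 for Bckdha. Gpt minus Gpt2 ran from -0.022 to 0.374 and Got1 minus Got2 from -1.42 to -0.758 with single arrays left out. Of these runs only Got1 minus Got2 without maple syrup replicate 5 passed. The count of pairs that passed was 0 as reported, 2 with Spearman's rho, 1 without the 2 farthest animals (Got2 with Agxt2) and 0 to 5 with single arrays left out, and the count with r of at least 0.7, an alternative added after seeing the data, ran from 2 to 7. The causes were not tested.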
